A study of Mus musculus with 17 samples.

Results

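The chemokine genes that gut epithelium is known to transcribe were followed here in sorted intestinal stem cells 3 h after gamma irradiation. The members were Cxcl16, Cx3cl1, Cxcl1, Cxcl2, Cxcl5, Cxcl10, Ccl20, Ccl25 and Ccl28, 9 genes taken by name from the array's gene column, which carried 13 probes for them. A probe entered the tests if it was well above background on at least 4 arrays. On that rule 7 of the 9 genes were tested among 27771 genes in all, while Cxcl2 and Ccl20 are given as values only.

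The cells came from LGR5-GFPki mice, which carry GFP knocked in at Lgr5, a gene of crypt base stem cells, so that green fluorescence ranks cells by Lgr5 transcription. The study sorted an LGR5hi and an LGR5lo fraction from mice given 12 Gy and from mice given none. Total RNA of each sample was labelled with Cy3 and hybridised alone to an Agilent mouse expression array. The 4 groups were irradiated LGR5hi cells (4 arrays), non-irradiated LGR5hi cells (4 arrays), irradiated LGR5lo cells (4 arrays) and non-irradiated LGR5lo cells (5 arrays). Each held both sexes, with 2 female and 2 male samples in every group except the last, which had 2 female and 3 male. The genotype was the same in all 17 samples. Ages were not analysed here, and the labels do not say that arrays of a group came from separate mice, so the p-values measure the spread between these arrays. The sort selects on fluorescence, and in such bulk samples fewer cells that express a gene and less RNA per cell cannot be told apart.

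Chemokines are small secreted proteins that direct leukocyte migration by binding G protein-coupled receptors. Gut epithelium makes some of them at steady state, such as Ccl25 and Ccl28, which bring lymphocytes and antibody-secreting cells into the mucosa. Others are transcribed at once after stress, cytokines or microbial products, through NF-kB and interferon-regulated promoters, and recruit neutrophils and effector T cells. Cxcl16 and Cx3cl1 are unusual in being made as transmembrane proteins, which hold leukocytes at the cell surface until metalloproteases shed the chemokine domain.

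The promoters of 3 inducible members show the elements that this family is known for. The 250 bases before the gene start were read 5′ to 3′ on the gene's strand from RefSeq (GRCm38.p6), with capitals marking every match, on either strand, to the NF-kB consensus, to the interferon response element (a pair of GAAA repeats 2 bases apart) or to the AP-1 element TGANTCA. The stretches are chr5:90890995-90891244 on the plus strand for Cxcl1, chr5:90903649-90903898 on the plus strand for Cxcl2 and chr5:92348890-92349139 on the minus strand for Cxcl10.
Cxcl1: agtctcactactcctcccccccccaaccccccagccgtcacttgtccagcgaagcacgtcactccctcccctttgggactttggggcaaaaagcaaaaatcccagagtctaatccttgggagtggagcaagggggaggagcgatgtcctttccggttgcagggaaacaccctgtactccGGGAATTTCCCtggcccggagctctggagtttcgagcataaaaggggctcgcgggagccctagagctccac
Cxcl2: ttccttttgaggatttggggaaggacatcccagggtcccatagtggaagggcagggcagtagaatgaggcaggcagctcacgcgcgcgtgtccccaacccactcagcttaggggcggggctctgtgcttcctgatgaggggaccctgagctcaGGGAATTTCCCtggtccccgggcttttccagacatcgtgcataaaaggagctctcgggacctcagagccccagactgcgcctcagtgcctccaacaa
Cxcl10: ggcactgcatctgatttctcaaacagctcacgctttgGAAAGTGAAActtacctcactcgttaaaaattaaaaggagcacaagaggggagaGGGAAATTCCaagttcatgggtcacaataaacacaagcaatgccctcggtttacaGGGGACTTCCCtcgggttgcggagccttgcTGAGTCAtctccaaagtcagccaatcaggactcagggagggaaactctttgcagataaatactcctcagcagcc
Cxcl1 and Cxcl2 held the same run, GGGAATTTCCC, in which 2 NF-kB matches overlap, starting 71 and 97 bases before the gene start. Cxcl10 held an NF-kB match starting 159 bases before its start and a pair of overlapping ones starting 104 bases before it, beside an interferon response element (GAAAGTGAAA) at 213 bases and an AP-1 element (TGAGTCA) at 74 bases. Of 32851 RefSeq mouse promoters cut to the same length, 7.25% held the NF-kB consensus, 2.98% the interferon response element and 6.75% the AP-1 element. RefSeq entries were matched for 7 of the 9 members. Ccl20 held 1 NF-kB match, starting 80 bases before its start, and these letters were not found in the windows of Cx3cl1, Ccl25 and Ccl28.

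A gene is called where its limma p, adjusted over all 27771 genes, was below 0.05, and only called genes are said to rise or fall. Levels are given as log2 of the deposited processed signal minus the array's own 75th percentile, so that 0 is the 75th percentile of that array and 1 unit is a doubling. The 75th percentile itself lay between 286 and 627 intensity units on the 16 arrays with a whole file. The file of non-irradiated LGR5hi replicate 1 was damaged, and its values were rebuilt from the authors' processed table, without background flags. One array, non-irradiated LGR5lo replicate 2, had 95.6% of its spots marked as well above background, against 58.9% to 73.9% on the other whole arrays. Many results that rest on it are given with and without it, but not all. The defining markers matched the sort: 9 of 10 LGR5 stem cell markers were higher in LGR5hi than in LGR5lo cells in both arms. Of all 27771 genes, 1282 were higher in LGR5hi cells without irradiation and 615 after it. All epithelial markers were above background on all 16 arrays that have flags. After irradiation 6 of 10 stem cell markers fell in LGR5hi cells and 4 in LGR5lo cells, where 7.3% and 3.02% of all genes fell. Without non-irradiated LGR5lo replicate 2 the counts were 7 and 6, where 2824 and 1171 of 27771 genes fell. The part of these falls in the chemokine values was not tested. Leukocyte markers, 20 genes, averaged -1.98 to -1.58 on irradiated and -2.10 to -1.86 on non-irradiated LGR5hi arrays, and -1.57 to -1.34 on irradiated and -1.54 to -0.18 on non-irradiated LGR5lo arrays, with Itgax, Ms4a1 and Laptm5 above background on none of the 3 non-irradiated LGR5hi arrays that have flags. Of the 20, 1 rose and 0 fell in irradiated LGR5hi cells, where 6.18% of all genes rose and 7.3% fell. In irradiated LGR5lo cells 1 rose and 3 fell, where 4.48% of all genes rose and 3.02% fell. The part of leukocytes in the chemokine values was not tested.

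**Figure D1:**
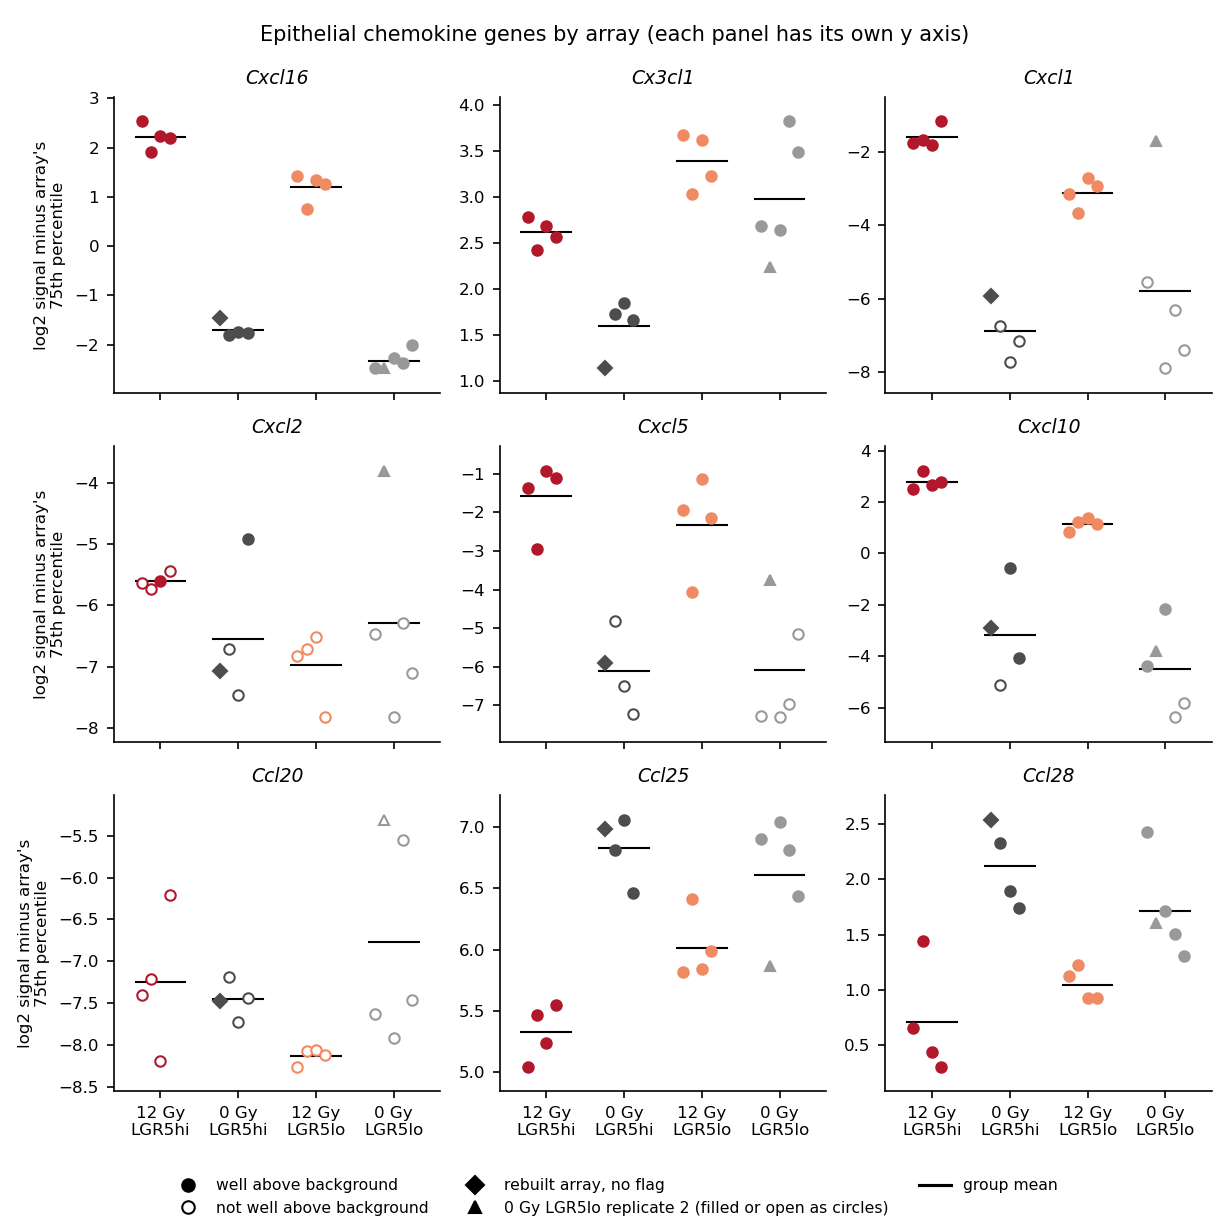
Level of each member on every array, as log2 of the processed signal minus the array's 75th percentile (vertical axes), by group (horizontal axis), with open points for arrays on which the probe was not well above background and bars for group means. Cxcl16 on the 4 irradiated arrays of each fraction sits above all non-irradiated arrays of that fraction, while Ccl20 is open on every array that has flags.

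Cxcl16, the transmembrane ligand of CXCR6, rose in both fractions after irradiation, 15.0-fold in LGR5hi cells and 11.4-fold in LGR5lo cells. Its probe (NM_023158, mm9 chr11:70267780-70267839) read 2.53, 1.91, 2.23 and 2.19 in irradiated LGR5hi cells, against -1.47, -1.81, -1.74 and -1.76 in non-irradiated LGR5hi cells. In irradiated LGR5lo cells it read 1.42, 0.76, 1.34 and 1.25, against -2.48, -2.48, -2.27, -2.38 and -2.0 in non-irradiated LGR5lo cells. In each fraction every irradiated array lay far above every non-irradiated one, and the probe was above background on all 16 arrays that have flags. The change was 3.91 ± 0.18 in LGR5hi cells (log2 ± SE, limma adjusted p = 1.64e-09) and 3.51 ± 0.17 in LGR5lo cells (adjusted p = 4.2e-09). It was 3.86 on the first slide and 3.97 on the second in LGR5hi cells, and 3.57 and 3.62 in LGR5lo cells.

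Cx3cl1, or fractalkine, the other transmembrane chemokine and the ligand of CX3CR1, rose 2.03-fold in LGR5hi cells. Its probe (NM_009142, mm9 chr8:97306185-97306244) gave 2.78, 2.42, 2.68 and 2.56 in irradiated LGR5hi cells and 1.14, 1.72, 1.84 and 1.66 in non-irradiated LGR5hi cells, groups that did not overlap. The change of 1.02 ± 0.29 passed the test (adjusted p = 0.0282), but the call was lost when any of 6 of the 8 LGR5hi arrays was left out, with adjusted p up to 0.10. Median centring (0.97, adjusted p = 0.130) and normexp (0.74, adjusted p = 0.0832) ended it as well. It was 1.17 on the first slide and 0.87 on the second. In LGR5lo cells the values were 3.67, 3.03, 3.62 and 3.23 after irradiation and 2.68, 2.24, 2.64, 3.82 and 3.48 without, and the groups overlapped, with non-irradiated replicates 4 and 5 as high as the irradiated arrays. The LGR5lo difference was 0.42 ± 0.28 (adjusted p = 0.349), with a 95% interval of -0.17 to 1.01. Among the non-irradiated LGR5lo arrays Cx3cl1 had a SD of 0.65, against 0.31 for irradiated LGR5lo arrays.

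Cxcl1, Cxcl2 and Cxcl5 are ligands of CXCR2 and attract neutrophils. They lie in one cluster on chromosome 5, where Cxcl1 and Cxcl2 are 10777 bases apart and Cxcl5 is 129619 bases from Cxcl1 in GRCm38.p6. Cxcl1 and Cxcl5 rose in irradiated LGR5hi cells, in which both were above background on 4 of 4 arrays, whereas neither was above background on any of the 3 non-irradiated LGR5hi arrays that have flags. Both passed the filter through the irradiated arrays and non-irradiated LGR5lo replicate 2, so a difference between the arms was built into their entry to the tests.

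The Cxcl1 probe (NM_008176, mm9 chr5:91321845-91321904) read -1.76, -1.67, -1.81 and -1.18 in irradiated LGR5hi cells, against -5.93, -6.74, -7.74 and -7.15 in non-irradiated LGR5hi cells. Every irradiated array was far above the non-irradiated ones, which lay at the array's background. A fold against such a group is only a bound, for which each dim array counts at the higher of its lowest signal well above background and the probe's own value. By that bound Cxcl1 was at least 13.5-fold higher (limma adjusted p = 0.000997), from a mean of -1.60 in irradiated LGR5hi cells and a bound of -5.36 in non-irradiated ones, whose measured mean was -6.89. In LGR5lo cells Cxcl1 read -3.14, -3.66, -2.72 and -2.92 after irradiation and -5.56, -1.71, -7.90, -6.32 and -7.41 without. Non-irradiated replicate 2, the array that stood apart, was the only one of its group above background and was higher than every irradiated LGR5lo array. With it the difference did not pass the test (limma adjusted p = 0.0834). Without it no non-irradiated LGR5lo array was above background, Cxcl1 was at least 4.79-fold higher (limma adjusted p = 9.74e-05), and the groups did not overlap. On each slide taken alone the irradiated LGR5hi arrays lay above the non-irradiated ones. In LGR5lo cells this held on the second slide, while on the first, which held non-irradiated replicate 2, the arms overlapped.

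Cxcl5 followed a similar course, with more spread among irradiated arrays. Its probe (NM_009141, mm9 chr5:91190490-91190549) read -1.37, -2.95, -0.92 and -1.10 in irradiated LGR5hi cells, against -5.90, -4.82, -6.51 and -7.21 in non-irradiated LGR5hi cells. The arms were separate, and Cxcl5 was at least 13.4-fold higher after irradiation (adjusted p = 0.00121), from a mean of -1.59 in irradiated LGR5hi cells and a bound of -5.33 in non-irradiated ones, whose measured mean was -6.11. In LGR5lo cells the values were -1.94, -4.05, -1.14 and -2.15 after irradiation and -7.27, -3.75, -7.31, -6.96 and -5.15 without. Cxcl5 was called higher there (adjusted p = 0.00666), against a group in which only replicate 2 was above background, and irradiated replicate 2 lay just under that array. Without non-irradiated replicate 2 it was at least 8.27-fold higher (adjusted p = 0.000792). Replicate 2 was also the lowest irradiated LGR5hi array. By slide the arms were separate on both slides in LGR5hi cells, and on the second alone in LGR5lo cells.

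Cxcl2, the neighbour of Cxcl1, was above background on 3 of 16 arrays and was not tested. Its probe (NM_009140, mm9 chr5:91334534-91334593) read -5.64, -5.73, -5.60 and -5.44 in irradiated LGR5hi cells and -7.08, -6.71, -7.46 and -4.91 in non-irradiated LGR5hi cells, with 1 array above background in each. The values were -6.82, -6.71, -6.51 and -7.83 in irradiated LGR5lo cells, none above background, and -6.47, -3.80, -7.82, -6.28 and -7.10 in non-irradiated LGR5lo cells, where replicate 2 alone was above it. In each fraction the irradiated and non-irradiated ranges overlapped. The irradiated LGR5hi arrays all read above the irradiated LGR5lo arrays, but only 1 of these 8 arrays was above background, so no fold is given.

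Cxcl10, a ligand of CXCR3 that attracts effector T cells and is known as an interferon-inducible gene, rose in both fractions, from non-irradiated levels that lay partly at background. The probe (NM_021274, mm9 chr5:92775781-92775840) read 2.51, 3.22, 2.67 and 2.77 in irradiated LGR5hi cells, against -2.89, -5.12, -0.58 and -4.06 in non-irradiated LGR5hi cells. In LGR5lo cells it read 0.81, 1.23, 1.39 and 1.14 after irradiation, against -4.37, -3.80, -2.15, -6.38 and -5.82 without. The irradiated arrays lay close together and the non-irradiated ones were spread over more than 4 log2 units, and only 2 of 3 LGR5hi arrays with flags and 3 of 5 LGR5lo arrays were above background, yet the arms did not overlap in either fraction. The change was 5.95 ± 0.87 in LGR5hi cells (adjusted p = 0.000199, 95% interval 4.10 to 7.81) and 5.65 ± 0.83 in LGR5lo cells (adjusted p = 0.000448, interval 3.89 to 7.40). The size depended on the non-irradiated arrays: it was 5.30 in LGR5hi cells without non-irradiated replicate 2 and 6.82 without replicate 3, and 5.18 to 6.23 in LGR5lo cells over left-out arrays. With normexp background correction it was 4.36 in LGR5hi and 3.48 in LGR5lo cells, both called. By slide it was 6.87 and 5.04 in LGR5hi cells, and 5.10 and 5.53 in LGR5lo cells. A second Cxcl10 probe (AK156907, mm9 chr5:92776616-92776675) was above background on 8 of 16 arrays. These were 4 of 4 irradiated LGR5hi, 3 of 4 irradiated LGR5lo, 0 of 3 non-irradiated LGR5hi and 1 of 5 non-irradiated LGR5lo arrays. It thus entered the tests through the irradiated arrays. The fit gave 3.81 ± 0.82 in LGR5hi cells (limma adjusted p over probes = 0.00523) and 1.19 ± 0.78 in LGR5lo cells (adjusted p = 0.344). These values are fitted against arrays mostly not above background and are not sizes of the change. That probe read -2.74 on non-irradiated LGR5lo replicate 2, above all irradiated LGR5lo arrays.

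Ccl20, the ligand of CCR6, was above background on 0 of 16 arrays. Its probe (NM_016960, mm9 chr1:83115682-83115741) read -7.40, -7.21, -8.18 and -6.21 in irradiated LGR5hi cells, against -7.47, -7.18, -7.72 and -7.44 in non-irradiated LGR5hi cells. It read -8.26, -8.07, -8.06 and -8.12 in irradiated LGR5lo cells, against -7.62, -5.31, -7.92, -5.56 and -7.47 in non-irradiated LGR5lo cells. These values carry no order, and no fold is given.

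Ccl25, the ligand of CCR9 that guides lymphocytes and thymocyte precursors to the small intestine and thymus, fell in irradiated LGR5hi cells. The probe tested for the gene (NM_009138, mm9 chr8:4359916-4359975) gave 5.05, 5.47, 5.24 and 5.55 in irradiated LGR5hi cells and 6.98, 6.81, 7.06 and 6.46 in non-irradiated LGR5hi cells. The arms were separate, and the level after irradiation was 2.83-fold lower (-1.50 ± 0.24, adjusted p = 0.000428). In LGR5lo cells it gave 5.82, 6.41, 5.84 and 5.99 after irradiation and 6.90, 5.87, 7.04, 6.81 and 6.43 without, which overlapped only through non-irradiated replicate 2. The LGR5lo difference was -0.59 ± 0.23 (adjusted p = 0.131), and without that array it was -0.78 ± 0.19 (adjusted p = 0.0156). By slide the change was -1.64 and -1.36 in LGR5hi cells, and -0.27 and -1.01 in LGR5lo cells. The other 3 Ccl25 probes disagreed in LGR5hi cells. ENSMUST00000127258 gave -0.63 ± 0.24 (limma adjusted p over probes = 0.115) and NR_033527 gave -0.06 ± 0.35 (adjusted p = 0.965). AK131875 gave -1.82 ± 0.47 (adjusted p = 0.0164), but was above background on only 1 of 4 irradiated LGR5hi arrays and 8 of 16 arrays in all. Its value is thus fitted from arrays mostly not above background after irradiation and is not a size of the fall.

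Ccl28, a mucosal chemokine that binds CCR10 and CCR3, also fell in irradiated LGR5hi cells. Its probe (NM_020279, placed by the array on an unordered contig of mm9 chromosome 13) read 0.65, 1.44, 0.44 and 0.30 in irradiated LGR5hi cells, against 2.54, 2.33, 1.89 and 1.74 in non-irradiated LGR5hi cells, so that the arms were separate. The level was 2.68-fold lower (-1.42 ± 0.27, adjusted p = 0.00192). In LGR5lo cells it read 1.12, 1.22, 0.92 and 0.92 after irradiation, against 2.43, 1.61, 1.71, 1.51 and 1.31 without. The irradiated LGR5lo arrays all lay under the non-irradiated ones, but the difference of -0.67 ± 0.26 did not pass the test (adjusted p = 0.134). By slide the values were -1.39 and -1.45 in LGR5hi cells, and -0.85 and -0.69 in LGR5lo cells.

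**Figure D2:**
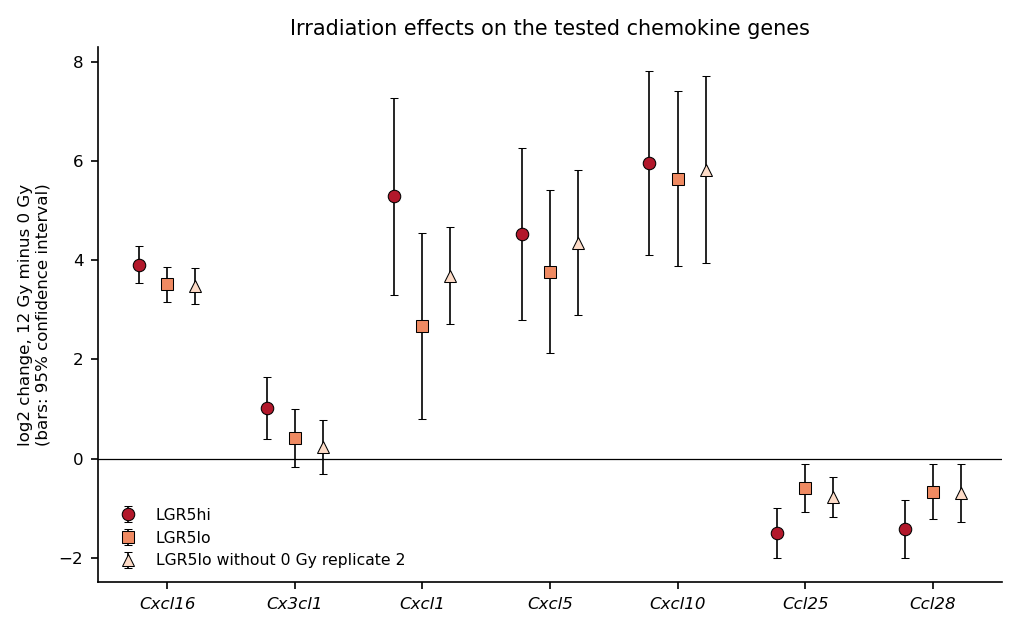
Irradiation effect on each tested member (vertical axis, log2 change, 12 Gy minus 0 Gy, with 95% intervals) in LGR5hi cells, in LGR5lo cells and in LGR5lo cells without non-irradiated replicate 2. Cxcl16 has the narrowest intervals, at 3.91 in LGR5hi and 3.51 in LGR5lo cells, and in LGR5hi cells Ccl25 and Ccl28 lie below 0. The points of Cxcl1 and Cxcl5 are fitted against arrays mostly not above background and are not sizes or bounds of the change.

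Set side by side, 5 of the 7 tested members were called higher after irradiation in LGR5hi cells, where 6.18% of all genes tested were, and 2 were called lower, where 7.3% of all genes were. In LGR5lo cells 3 members were called higher (Cxcl16, Cxcl5 and Cxcl10), against 4.48% of all genes, and 0 lower, against 3.02%. Ccl25 and Ccl28 made 2 lower at an unadjusted p below 0.05, which 24.1% of all genes passed in either direction. Without non-irradiated LGR5lo replicate 2, 4 members were called higher and Ccl25 lower, when 9.14% of all genes were called in either direction. The median change over all genes was -0.02 in LGR5hi and -0.13 in LGR5lo cells. Since Cxcl1 and Cxcl5 entered through their irradiated arrays, these counts describe the members and support nothing further.

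The irradiation effect was not shown to differ between the fractions for any member. In the test of the difference (the LGR5hi effect minus the LGR5lo effect) limma called 0 of 7 members and 0.0396% of all genes. An unadjusted p below 0.05 was reached by 1 member and by 6.81% of all genes. The member with that unadjusted p was Ccl25, whose difference was -0.91 ± 0.33 by limma (adjusted p = 0.633), with an interval of -1.61 to -0.21. For Cxcl1, whose non-irradiated arrays lay mostly at background, the adjusted p was 0.714 and no size is given. For Cxcl16 it was 0.40 ± 0.24, with an interval of -0.12 to 0.92. Cxcl10, at 0.31 ± 1.20, had an interval of -2.24 to 2.86, which leaves room for differences of several fold either way.

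Without irradiation the fractions differed in both transmembrane chemokines. Cxcl16 was 1.54-fold higher in LGR5hi than in LGR5lo cells (0.63 ± 0.17, adjusted p = 0.028), with every LGR5hi array above every LGR5lo array. Cx3cl1 was 2.6-fold lower in LGR5hi than in LGR5lo cells (-1.38 ± 0.28, adjusted p = 0.00458), again with no overlap. These were 2 of 7 members called, where 9.55% of all genes were. Without non-irradiated LGR5lo replicate 2, 1 member was called higher and 1 lower, where 1184 and 1683 of 27771 genes were. The numbers of the replicates paired the fractions within each arm, and with the number as a block limma called 0 of 7 members, where 1.35% of all genes were called. Cxcl16 then gave 0.71 ± 0.19 (adjusted p = 0.204) and Cx3cl1 -1.25 ± 0.33 (adjusted p = 0.199), the only 2 with an unadjusted p below 0.05. By number the LGR5hi minus LGR5lo difference was 1.01, 0.67, 0.53 and 0.61 for Cxcl16 and -1.54, -0.51, -0.80 and -2.16 for Cx3cl1, so each kept its sign in 4 of 4 pairs. Leaving out 1 of 4 arrays (LGR5hi replicate 1, 2 or 4, or LGR5lo replicate 4) ended the Cxcl16 call, with adjusted p up to 0.11. Quantile scaling (adjusted p = 0.125), normexp (0.35, adjusted p = 0.447) and a fit of the 2 groups alone (adjusted p = 0.0864) ended it too. The Cx3cl1 call ended with median centring (-1.13, adjusted p = 0.0583) and in the fit of the 2 groups alone (adjusted p = 0.0567). The other tested members did not pass, among them Cxcl10 at 1.34 ± 0.83 (adjusted p = 0.322).

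After irradiation Cxcl16 was 2.03-fold higher in LGR5hi than in LGR5lo cells (1.02 ± 0.18, adjusted p = 0.0018), the 1 of 7 members called, where 6.31% of all genes were. Quantile scaling ended that call (1.05, adjusted p = 0.298). Cxcl1 and Cxcl10 were higher, and Cx3cl1 and Ccl25 lower, on every LGR5hi array than on any LGR5lo array without passing that test. By replicate number the LGR5hi minus LGR5lo difference was 1.39, 1.98, 0.91 and 1.75 for Cxcl1, 1.70, 2.0, 1.28 and 1.63 for Cxcl10 and 0.57, 1.10, 0.22 and 1.05 for Cxcl5. It was -0.89, -0.61, -0.93 and -0.67 for Cx3cl1 and -0.77, -0.95, -0.60 and -0.44 for Ccl25. Each of these kept its sign in 4 of 4 pairs, and with the number as a block 6 of 7 members were called, where 19.2% of all genes were. Those were Cxcl10 (1.65 ± 0.14, adjusted p = 0.00433), Cxcl16 (1.02 ± 0.09, adjusted p = 0.00488), Cx3cl1 (-0.78 ± 0.10, adjusted p = 0.0106), Cxcl1 (1.51 ± 0.20, adjusted p = 0.0111), Ccl25 (-0.69 ± 0.11, adjusted p = 0.0195) and Cxcl5 (0.74 ± 0.18, adjusted p = 0.0493). Ccl28, with differences of -0.47, 0.22, -0.48 and -0.62, gave -0.34 ± 0.17 (adjusted p = 0.214). Without non-irradiated LGR5lo replicate 2, which enters only the shared estimate of spread, 3 members were called without the block: Cxcl16, Ccl25 (adjusted p = 0.0277) and Cxcl1 (adjusted p = 0.0481). The number of all genes called in this contrast moved too, from 1062 to 2869 of 27771 over left-out arrays, against 1753 with all arrays. The Ccl25 values of this contrast are those of the probe tested for the gene (NM_009138). The other 3 gave -0.41 (AK131875), -0.07 (ENSMUST00000127258) and 0.22 (NR_033527), none called. AK131875 was above background on only 1 of 4 arrays of each irradiated group. The mean of the gene's probes gave -0.24 (adjusted p = 0.631).

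**Figure D3:**
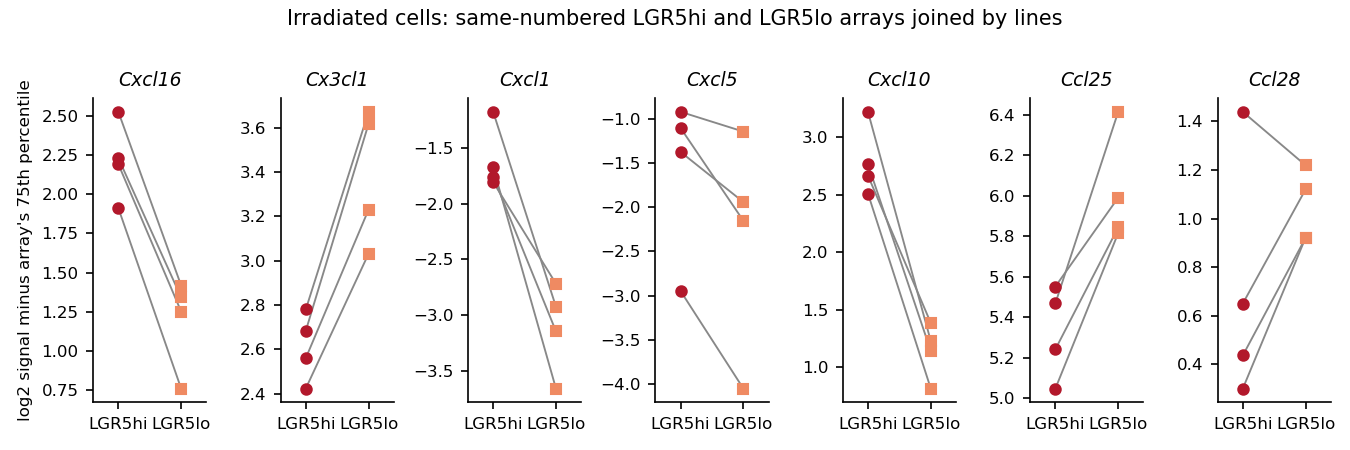
Level of the tested members in irradiated LGR5hi and irradiated LGR5lo cells (log2 of the processed signal minus the array's 75th percentile, vertical axes), with lines joining arrays of the same replicate number. The lines of Cxcl16, Cxcl1, Cxcl10 and Cxcl5 are higher at LGR5hi in all 4 pairs, and those of Cx3cl1 and Ccl25 are lower in all 4.

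Markers of several other cell types also differed between the fractions. Over all 27771 genes, 1369 were lower in LGR5hi than in LGR5lo cells without irradiation and 1138 after it. In LGR5hi against LGR5lo cells 12 of 12 enteroendocrine markers were lower in both arms, and their mean level was -0.16 to 0.16 on irradiated LGR5hi arrays against 4.35 to 5.03 on irradiated LGR5lo arrays. Without irradiation it was -0.04 to 0.80 on LGR5hi arrays against 3.94 to 4.57 on LGR5lo arrays. Of the leukocyte markers 7 of 20 were lower in non-irradiated LGR5hi cells and 1 of 20 in irradiated ones. The count in irradiated cells lay near the share over all genes. Without non-irradiated LGR5lo replicate 2 the leukocyte counts were 6 and 1, where 1683 of all genes were lower in non-irradiated LGR5hi cells. Goblet markers were lower in LGR5hi cells for 6 of 7 genes in both arms, and tuft cell markers for 6 of 8 irradiated and 8 of 8 non-irradiated. Without non-irradiated LGR5lo replicate 2 the tuft count was 8 of 8 in both arms. Paneth markers were lower for 1 of 5 genes without irradiation and 0 of 5 after it. Enterocyte markers were lower for 1 of 10 genes in both arms. The part of these cells in the fraction differences of Cx3cl1, Ccl25 and the other members was not tested.

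The order of the 4 groups thus differed from gene to gene. Cxcl16 stood highest in irradiated LGR5hi cells (2.22 ± 0.25, SD over 4 arrays, or 5 for non-irradiated LGR5lo cells throughout), then irradiated LGR5lo (1.19 ± 0.30), non-irradiated LGR5hi (-1.70 ± 0.16) and non-irradiated LGR5lo cells (-2.32 ± 0.20), and no neighbours in that order overlapped. Cxcl10 kept the same order at 2.79 ± 0.31, 1.14 ± 0.24, -3.16 ± 1.95 and -4.50 ± 1.68, but its non-irradiated groups overlapped. Cxcl1 and Cxcl5 had irradiated LGR5hi cells first, then irradiated LGR5lo cells, separate for Cxcl1 and overlapping for Cxcl5, and their non-irradiated groups overlapped near background. Irradiated LGR5lo cells overlapped non-irradiated LGR5lo cells in both genes only through non-irradiated replicate 2. Cx3cl1 ran the other way by fraction, at 3.39 ± 0.31 in irradiated and 2.97 ± 0.65 in non-irradiated LGR5lo cells, then 2.61 ± 0.15 in irradiated and 1.59 ± 0.31 in non-irradiated LGR5hi cells. Its 3 highest groups overlapped in that order, each with the next. Ccl25 was highest in non-irradiated LGR5hi cells (6.83 ± 0.26), then non-irradiated LGR5lo (6.61 ± 0.47), irradiated LGR5lo (6.02 ± 0.28) and irradiated LGR5hi cells (5.33 ± 0.23), and only the last neighbours were separate. Ccl28 had this order too, at 2.13 ± 0.37, 1.71 ± 0.43, 1.05 ± 0.15 and 0.71 ± 0.51, with only the middle neighbours separate.

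Genes that regulate chemokine transcription gave a mixed picture, from lists chosen with earlier results of these data known. Of 21 tested NF-kB subunits, kinases and feedback genes, 12 rose and 0 fell in irradiated LGR5hi cells, and 11 rose and 0 fell in irradiated LGR5lo cells. The list's median change was 0.85 and 0.74, beside -0.02 and -0.13 over all genes, of which 6.18% rose in LGR5hi and 4.48% in LGR5lo cells. Without non-irradiated LGR5lo replicate 2, 14 rose and 0 fell in LGR5hi cells, and 12 rose and 0 fell in LGR5lo cells. Of all 27771 genes 2367 then rose in LGR5hi and 1368 in LGR5lo cells. Rel, a gene of this list, was above background on 2 of 4 irradiated LGR5hi and 4 of 4 irradiated LGR5lo arrays. Without irradiation it was so on 0 of 3 LGR5hi arrays that have flags and 1 of 5 LGR5lo arrays. Rel thus entered the tests through the irradiated arrays, and the list's counts support nothing further. Nfkbia, which encodes the inhibitor IkB-alpha and is itself an NF-kB target, rose by 2.17 ± 0.19 in LGR5hi cells (adjusted p = 1.22e-06) and by 1.92 ± 0.18 in LGR5lo cells (adjusted p = 4.61e-06). Nfkb2, the p100 and p52 subunit gene, rose by 2.77 ± 0.24 in LGR5hi (adjusted p = 1.6e-06) and by 1.74 ± 0.23 in LGR5lo cells (adjusted p = 0.000188). Ikbke, a kinase of NF-kB and interferon signalling, rose by 2.21 ± 0.24 in LGR5hi cells, and Tnfaip3, the feedback inhibitor A20, by 1.83 ± 0.26.

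Of 18 tested interferon-response genes, 1 rose and 1 fell in irradiated LGR5hi cells, where 6.18% of all genes rose and 7.3% fell. In irradiated LGR5lo cells 1 rose and 0 fell, where 4.48% of all genes rose and 3.02% fell, so these counts lay near the share over all genes. The list's medians were -0.28 and -0.14. Tap1, a peptide transporter of antigen presentation, rose by 1.62 ± 0.26 in LGR5hi (adjusted p = 0.000404) and by 1.37 ± 0.24 in LGR5lo cells (adjusted p = 0.00219). Ifih1, an RNA sensor, fell by 0.66 ± 0.16 in LGR5hi cells (adjusted p = 0.00993). Without non-irradiated LGR5lo replicate 2 the counts were 2 higher and 3 lower in LGR5hi cells and again 1 and 0 in LGR5lo cells. Over all 27771 genes they were then 2367 higher and 2824 lower in LGR5hi cells, and 1368 and 1171 in LGR5lo cells.

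Among 16 tested genes for cytokine and microbial inputs, 6 rose and 0 fell in irradiated LGR5hi cells, where 6.18% of all genes rose and 7.3% fell. In irradiated LGR5lo cells 4 rose and 0 fell, where 4.48% of all genes rose and 3.02% fell. Without non-irradiated LGR5lo replicate 2, 7 rose and 1 fell in LGR5hi cells, and 6 rose and 0 fell in LGR5lo cells, beside the all-gene counts without that array given above. Tlr4, a gene of this list, was above background on 4 of 4 irradiated and 0 of 3 non-irradiated LGR5hi arrays that have flags. It was so on 2 of 5 non-irradiated LGR5lo arrays. Tlr4 thus needed irradiated arrays to enter the tests, and the list's counts support nothing further. Tnf, the cytokine that drives NF-kB, rose by 2.14 ± 0.35 in LGR5hi (adjusted p = 0.000585) and by 2.16 ± 0.33 in LGR5lo cells (adjusted p = 0.000725). Its receptor gene Tnfrsf1b rose by 1.51 in LGR5hi cells (adjusted p = 0.00742), and the difference was 0.99 in LGR5lo cells (adjusted p = 0.0851). Tnfrsf1a, the other receptor, rose by 0.75 in LGR5hi and 0.92 in LGR5lo cells, and Myd88, the adaptor of Toll-like and interleukin-1 receptors, by 1.06 and 0.98. Of 6 tested factors that control chemokine mRNA decay, 1 rose in irradiated LGR5hi and 0 in LGR5lo cells, where 6.18% and 4.48% of all genes rose. The factor that rose, Zfp36, encodes tristetraprolin and changed by 1.59 ± 0.36 (adjusted p = 0.00634).

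Of the members' receptors 7 were tested by limma, and 0 rose and 0 fell in either fraction. At an unadjusted p below 0.05 there was 1 lower in LGR5hi and 3 lower in LGR5lo cells. Over all genes 23.2% in LGR5hi and 24.1% in LGR5lo cells passed that threshold, in either direction. The receptors' median change was -0.45 in LGR5hi and -0.71 in LGR5lo cells. Ccr10, a receptor of Ccl28, had the largest difference in LGR5hi cells among them, -1.28 (adjusted p = 0.0815). Among 7 other chemokine receptors Ackr3, a scavenging receptor of CXCL12, fell by 2.37 ± 0.60 in LGR5hi cells (adjusted p = 0.0133). Of 6 chemokine processing genes 1 rose and 1 fell in LGR5hi cells, where 6.18% of all genes rose and 7.3% fell. In LGR5lo cells 1 rose and 0 fell, where 4.48% of all genes rose and 3.02% fell. Without non-irradiated LGR5lo replicate 2, 2 rose and 1 fell in LGR5hi cells, and 1 rose and 0 fell in LGR5lo cells. Adam10 and Adam17, the proteases that shed Cxcl16 and Cx3cl1, differed by 0.33 and 0.01 in LGR5hi cells without passing the test. Rhbdf2, which carries ADAM17 to the cell surface, rose by 2.15 ± 0.16 in LGR5hi (adjusted p = 3.11e-07) and by 2.03 ± 0.15 in LGR5lo cells (adjusted p = 6e-07). Dpp4, a peptidase that trims Cxcl10, fell by 0.82 ± 0.25 in LGR5hi cells (adjusted p = 0.0416).

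Other chemokine ligands were followed as 2 lists. Of 6 other CXC ligands tested, 2 rose in irradiated LGR5hi cells and 0 in LGR5lo cells, where 6.18% and 4.48% of all genes rose. Pf4, which lies 10809 bases from Cxcl5, was at least 3.93-fold higher in irradiated LGR5hi cells (adjusted p = 0.00201), being above background on none of the 3 non-irradiated LGR5hi arrays that have flags. It was above background on 4 of 4 arrays of each irradiated group and 1 of 5 non-irradiated LGR5lo arrays, so it too entered the tests through the irradiated arrays, and the list's count supports nothing further. Cxcl9, an interferon-inducible CXCR3 ligand like Cxcl10, rose by 1.35 ± 0.35 (adjusted p = 0.0153). Of 12 other CC and C ligands 0 rose and 0 fell in either fraction by limma. At an unadjusted p below 0.05 there were 0 in LGR5hi and 5 lower in LGR5lo cells. Over all genes 23.2% in LGR5hi and 24.1% in LGR5lo cells passed that threshold, in either direction. Without non-irradiated LGR5lo replicate 2, 1 of the other CXC ligands was higher and 1 of the other CC and C ligands lower in irradiated LGR5lo cells, and 1 of the members' receptors lower in irradiated LGR5hi cells. Of all 27771 genes, 1368 were then higher and 1171 lower in irradiated LGR5lo cells, and 2824 lower in irradiated LGR5hi cells.

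**Figure D4:**
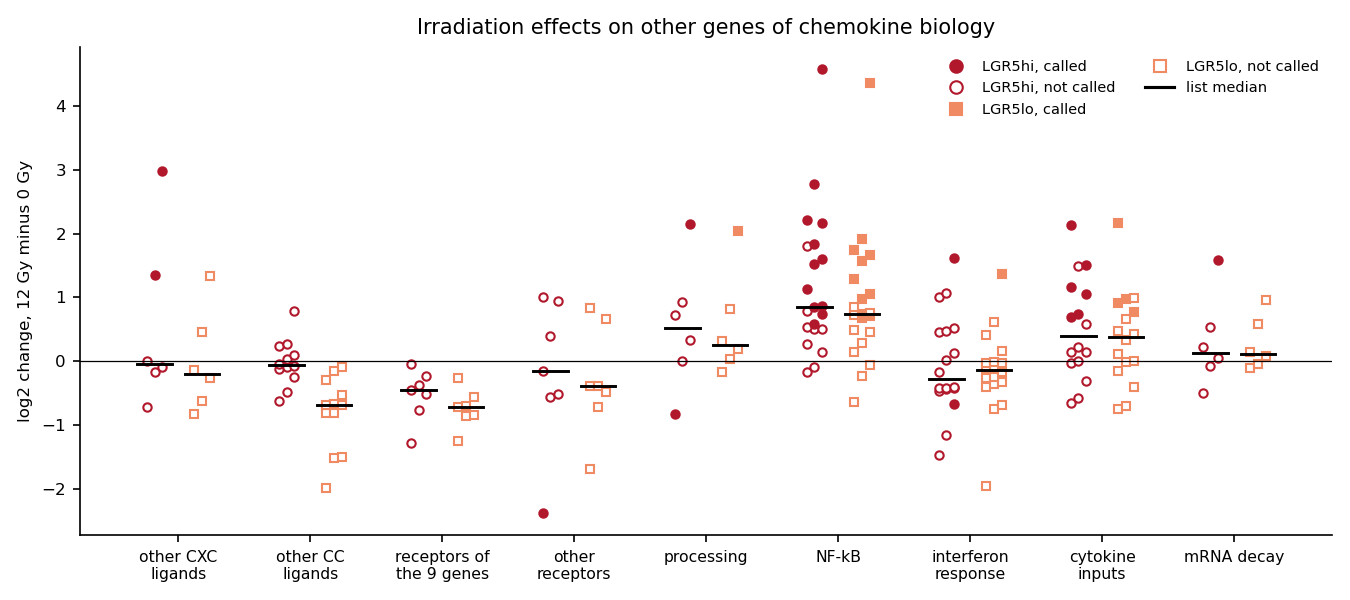
Irradiation effect (vertical axis, log2 change, 12 Gy minus 0 Gy) of every tested gene in 9 lists of chemokine biology, in LGR5hi and LGR5lo cells, filled where called at an adjusted p below 0.05, with bars for list medians. The NF-kB list has 12 filled points in LGR5hi and 11 in LGR5lo cells, all above 0, and the interferon list has medians of -0.28 and -0.14.

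The genes whose levels ran most like each member's over the 17 arrays were sought by Pearson's r, as a description, since the arrays fall into 4 groups and share their scaling. For Cxcl16 they were Casp14 (r = 0.983), Btc (0.980) and Nfkbia (0.980), but none of these stayed in the closest 3 without non-irradiated LGR5lo replicate 2. For Cxcl1 they were Procr (0.971), Gm4668 (0.965) and Aldh1a3 (0.961). Like Cxcl1, each of these was above background on 0 of 3 non-irradiated LGR5hi arrays that have flags and 1 of 5 non-irradiated LGR5lo arrays. Background readings thus enter these r values. For Cxcl5 the closest genes were Tnip3 (0.953), Krt36 (0.948) and Slfn2 (0.945). For Cxcl10 they were Ddias (0.967), Gtse1 (0.958) and Rap2b (0.956). Cx3cl1 ran with Gmppb (0.969), Gcnt3 (0.967) and Pdia3 (0.960), Ccl25 with Fam98c (0.975), Me2 (0.970) and Pxmp4 (0.967), and Ccl28 with Mrpl14 (0.975), Tk1 (0.969) and Cracdl (0.968). Without that array all of Cx3cl1's 3 stayed, 2 each stayed for Cxcl5, Cxcl10 and Ccl28, and 1 each for Cxcl1 and Ccl25.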

How the data were processed

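Arrays were 1-colour Agilent mouse arrays of 62976 spots, labelled with Cy3 and scanned to intensity values with Feature Extraction 10.7.3.1, per the submitters' processing notes and the file headers. The authors deposited, for each array, the background-subtracted processed intensity and a flag for spots well above background. The authors' deposited value table holds log2 values that, set against the scanner files, were scaled to the 75th percentile and centred on each probe's median over arrays: rebuilt from it and the other arrays, whole arrays came within 0.02 for 99.6% to 99.8% of probes. For non-irradiated LGR5hi replicate 1 only 15329 spots were readable, so its values were rebuilt in the same way, and 100% of 13422 readable probes lay within that tolerance after removal of 1 constant for the array. It has no background flags, which leaves 16 arrays with flags.

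Of 55681 non-control probes, 41444 were above background on at least 4 arrays. Each gene was tested with its kept probe of highest mean level, which left 27771 genes. Names were updated through RefSeq for 27229 matched probes (2837 symbols changed). Probe coordinates are the array's own, in mm9. Log2 intensity minus the array's 75th percentile was fitted over all 17 arrays with limma 3.58.1 (R 4.3.3), p-values were adjusted after Benjamini and Hochberg over the 27771 genes, and the threshold was 0.05. Intervals are 95% and ± after a change is the SE, while ± after a level is the SD. The limma calls were tested on simulated data. Tables and figures used Python 3.11.15.

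The members, lists and tests were chosen with earlier results of these data known. All 9 members are named, with up to 4 called genes per list by smallest p and the 3 genes most correlated with each member. Within an arm, deviations from the group means ran together in LGR5hi and LGR5lo arrays of the same number (r 0.17 to 0.46 irradiated and 0.12 to 0.35 non-irradiated), and the numbers were taken to pair the fractions. Irradiated and non-irradiated arrays of one number did not all do so (-0.03 to 0.16 in LGR5hi and -0.10 to 0.22 in LGR5lo cells). Slides held replicates 1 and 2, 3 and 4, and LGR5lo replicate 5. Alternatives were other scalings, background corrections and filters, sex, slide and replicate blocks, and each array left out. The number of arrays limits the precision.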

Additional observations from a re-analysis of the deposited data

Results flagged for a closer look

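Over the 13 member probes and 4 groups, 52 sets of arrays were examined for a lone extreme array, a check that chance trips about 1 time in 20, and 1 was found. The Ccl25 probe NR_033527 read -1.65 on non-irradiated LGR5hi replicate 4, far above the other 3 arrays of that group, which read -2.86 to -2.74. The probe tested for Ccl25 (NM_009138) read lowest, at 6.46, on the same array.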

How the results depend on the processing

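Of the member results recomputed, irradiation in LGR5hi cells kept its direction and its side of the threshold in 214 of 229 values, irradiation in LGR5lo cells in 213 of 229, the difference of effects in 215 of 222, the non-irradiated fraction contrast in 207 of 243 and the irradiated one in 216 of 236. Left out in turn, single arrays gave 6 to 7 members called for irradiation in LGR5hi cells, 3 to 5 in LGR5lo cells, 0 to 0 for the difference, 1 to 2 between non-irradiated and 1 to 3 between irradiated fractions. By slide, the first alone gave 2 members called in LGR5hi and 1 in LGR5lo cells, and both slides gave 0 for either fraction contrast. Of all 27771 genes, 105 and 246 were called by slide between non-irradiated fractions, and 319 and 118 between irradiated ones. Quantile scaling gave 5 in LGR5lo cells, 1 between non-irradiated and 0 between irradiated fractions. Median centring gave 1 between non-irradiated fractions, and normexp, run on 16 arrays, 1 there and 3 between irradiated fractions. Fitting only the groups compared gave 0 and 5. Sex as a term gave 2 between irradiated fractions. The replicate block within the arm gave 0 between non-irradiated fractions and 6 between irradiated ones, where 1.35% and 19.2% of all genes were called. Between non-irradiated fractions without LGR5lo replicate 2, a setting chosen after seeing the data, that block called 0 members and 0 of all 27771 genes. Its result there thus says nothing about the members. The replicate block over irradiated and non-irradiated numbers, which do not pair, added Ccl28 in LGR5lo cells (adjusted p = 0.045). Slide as a block without non-irradiated LGR5lo replicate 2, chosen after seeing the data, gave 6 in LGR5lo cells and 3 between irradiated fractions. Directions turned only in values that had not passed the test. For the difference of effects these were -0.22 for Cxcl16, -0.24 for Cxcl5 and -0.52 for Cxcl10 under quantile scaling, -0.49 for Cxcl10 on the second slide, -0.38 for Cxcl5 with the slide block without that array, and -0.34 to 1.17 for Cxcl10 over left-out arrays. Between non-irradiated fractions Cxcl5 (-0.02) gave 0.90 under quantile scaling, 0.22 under median centring, 0.10 with sex, 0.21 with the replicate block, overall and within the arm, and 0.21 with the slide block. It gave 0.15 and 0.27 by slide, and 0.040 with arm and replicate number as a random block. Without replicate 2, Cxcl5 gave 0.64 with the block within the arm and 1.12 with the slide block. Over left-out arrays it gave -0.45 to 0.56. Ccl25 gave -0.0056 under quantile scaling, -0.17 on the second slide, and -0.081 and -0.10 with those 2 blocks without replicate 2. The cause was not tested. Over all genes, 3743 were called for irradiation in LGR5hi cells (2357 with median centring, 2306 with normexp, 266 and 1573 by slide, 6666 with the slide block without replicate 2) and 2081 in LGR5lo cells (1275 with median centring, 42 and 459 by slide, 788 for the groups compared, 3435 with that slide block). Median centring, which moved the all-gene median to 0.12 in LGR5lo cells, gave 1052 higher and 223 lower there, beside 1243 and 838. Requiring 12 arrays above background left Cxcl1 and Cxcl5 with no value.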

Other observations

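Zmynd15, whose gene overlaps that of Cxcl16 by 552 bases on chromosome 11 in GRCm38.p6, was looked up after the values of Cxcl16 had been seen. It was 3.93 ± 0.64 higher in irradiated LGR5hi cells (limma adjusted p = 0.00053) and 3.22 ± 0.61 higher in irradiated LGR5lo cells (adjusted p = 0.00356). Its r with Cxcl16 over the 17 arrays was 0.889. Signal from one gene at the probe of the other was not tested.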
